A study of Homo sapiens with 9 samples.

Results

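Translation factors are the proteins that load ribosomes onto mRNA, move them along it and release the finished chain. A list of 51 genes for these factors was followed in BEAS-2B, an immortalized line of human bronchial epithelial cells, and its members were chosen by name as subunits of the initiation factors eIF1 to eIF6, elongation factors, release and recycling factors and cytoplasmic poly(A)-binding proteins. Of the 51, 50 had at least 10 counts in at least 3 libraries and were tested among 16030 genes of the table, which lists 63187. Control cells stayed untreated, and the other cultures received an aerosol condensate at 2% (v/v) of the medium, with 24 h of exposure. PG/VG is the condensate of a plain carrier, a mix of propylene glycol with vegetable glycerine, and EC is that of an e-cigarette liquid with Virginia tobacco flavor and 18 mg/mL nicotine. All cells were grown in the same medium with fetal bovine serum, and the untreated control did not receive a condensate. Poly(A) RNA was sequenced in 3 libraries per condition, numbered 2, 3 and 4, and the labels give that number as the batch. EC and PG/VG differ in both nicotine and flavor, so the effects of these cannot be told apart. The study gives no carrier ratio for the EC liquid, so a difference in the carrier cannot be told apart from them either.

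Initiation begins when eIF2, bound to GTP and the initiator tRNA, joins the small ribosomal subunit together with eIF1, eIF1A, eIF3 and eIF5. eIF2B recharges eIF2 with GTP and is the step that kinases of the integrated stress response block. The cap-binding protein eIF4E, the scaffold eIF4G and the helicase eIF4A bring the mRNA, and the 4E-binding proteins compete with eIF4G for eIF4E when the kinase mTORC1 is inactive. During elongation, the eEF1 complex delivers aminoacyl-tRNA, eEF2 moves the ribosome by a codon and eIF5A eases slow peptide bonds, after which eRF1 and eRF3 end the chain and ABCE1 splits the ribosome. Many mRNAs of the translation machinery start with a run of pyrimidines, the 5′ terminal oligopyrimidine (TOP) tract, through which mTORC1 and LARP1 control their translation.

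The libraries held 16168260 to 24917838 counts on genes, and the trimmed mean of M-values (TMM) factors ran from 0.971 to 1.045. The batch 4 libraries resembled each other across conditions and stood apart from those of batches 2 and 3. Between batches 2 and 3, libraries with the same number were no more alike across conditions than those with different numbers. In the control, the level in batch 4 was below the mean of batches 2 and 3 for 36 of the 50 members, with ratios from 0.464 to 1.29. The batch was part of the model because the labels give it and the study removed a batch effect before its tests. The number of calls without it or without batch 4 is given with the counts below. The epithelial keratins KRT8, KRT18 and KRT7 were detected at 301 to 1160 CPM (TMM-normalized counts, scaled per library) in every library, KRT19 was at 16.8 to 23.1 CPM, and EPCAM and CDH1 did not exceed 1.93 CPM and the basal cell markers KRT5 and TP63 did not reach 10 counts in 3 libraries. The mesenchymal markers VIM, FN1 and CDH2 lay between 247 and 5540 CPM, the immune markers PTPRC, CD3E and CD68 and the endothelial PECAM1 did not pass the filter, and CDH5 lay between 3.73 and 7.15 CPM. KRT8, KRT18, KRT7, FN1 and CDH2 fell in EC vs. control (LFC from −0.58 to −0.25, adjusted p from 0.000113 to 0.0177 in edgeR). The epithelial markers did not all fall, since 3 of the 6 tested were lower in EC, with 0 called higher. Their median LFC was −0.032, and EPCAM had the highest, 0.57. VIM fell in PG/VG (LFC −0.27, adjusted p = 0.0441 in edgeR), and the part of these markers in the results on translation factors was not tested. In RNA from whole cultures, less RNA per cell and fewer cells that express a gene cannot be told apart.

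The sequences at the annotated transcription start show which listed starts begin with a run of pyrimidines. An annotated start is not a measured one, so the letters do not show which mRNAs are TOP mRNAs. They are the first 24 bases from the start annotated by RefSeq on GRCh38.p14, written 5′ to 3′ on the strand of the gene, with the pyrimidine tract in capitals, and were chosen because these genes are described later. A tract was counted where the start was a C followed by at least 4 pyrimidines.
EEF1A1, chr6:73521009-73521032, minus strand: CTTTTTCgcaacgggtttgccgcc
EEF1B2, chr2:206159895-206159918, plus strand: CCTTTTTCCTCTCTTCagcgtggg
EEF2, chr19:3985440-3985463, minus strand: CTCTTCCgccgtcgtcgccgccat
EIF2A, chr3:150546787-150546810, plus strand: CTCTTTCCgggacaacatggcgcc
EIF2S3, chrX:24054956-24054979, plus strand: CTCTTTTggcaacatggcgggcgg
EIF3D, chr22:36529143-36529166, minus strand: CTCTTTTCCTggtttctcaagagt
EIF3F, chr11:7987337-7987360, plus strand: CTTCTTTCTCgacaagatggccac
EIF4B, chr12:53006456-53006479, plus strand: CTTTTgcgttctctttccctctcc
The 4 genes that follow were called in EC and have no such tract at the listed start.
EIF2B3, chr1:44986572-44986595, minus strand: agaggcggcgtggagatcgctggg
EIF3I, chr1:32222407-32222430, plus strand: actcacgttgcggccttcctcgcg
EIF4EBP2, chr10:70404145-70404168, plus strand: gcttccggtcgtcgtcgtcgccgc
EIF5A, chr17:7306999-7307022, plus strand: accacactagcgcgctagaagagt

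The promoter table had an entry for 41 of the 51 members, and 11 of these (26.8%) started with a tract, against 5.14% of the 27305 genes in the table. The 11 were EIF2S3, EIF3D, EIF3F, EIF3K, EIF3M, EIF4A2, EIF4B, EIF2A, EEF1A1, EEF1B2 and EEF2, with tracts of 5 bases in EIF4B to 16 bases in EEF1B2. EIF5A has 6 listed starts, none of which had a tract, and the first is shown.

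In EC vs. control, 24 of the 50 members were differentially expressed genes (DEGs), 23 with a lower and 1 with a higher level. Among all genes tested, 5.38% were lower and 8.07% higher at the same threshold, a Benjamini-Hochberg adjusted p under 0.05 in edgeR's quasi-likelihood test. The median fitted log2 fold change (LFC) of the members was −0.21, compared with 0.00778 over all genes tested. Within the batches, the median of the differences in log2 CPM between EC and control was −0.15, −0.21 and −0.23 in batches 2, 3 and 4. The level was lower in all 3 batches for 37 members, compared with 21.5% of all genes, and 18 members had every EC library below every control library, compared with 7.42% of all genes. The changes were small, since the largest absolute LFC was 0.39 and the median SE was 0.07. The number of DEGs depended on the batch term, since 0 members passed without it in edgeR, where 14 had an unadjusted p under 0.05 and 0.0998% of all genes passed. In batches 2 and 3 alone, 8 members and 7.85% of all genes passed. With DESeq2, 25 members and 10.8% passed, and on ComBat-Seq counts with DESeq2 34 members and 19.2%. With the 2 groups alone, 25 members and 13.2% passed. Leaving out control replicate 3, EC replicate 4 or EC replicate 3 gave 8, 8 and 10 members, beside 7.27%, 8.22% and 8.8% of all genes, and leaving out control replicate 2 or 4 gave 12 members each, beside 8.41% and 9.3%. EIF4EBP1, EEF1B2 and EIF5A were called in all 9 fits with 1 library left out, and the others in 4 to 8 of them. The fits without a PG/VG library drop no EC or control library, and all 24 DEGs kept their calls in each of these. Members called in 4 of the 9 fits kept their call, beyond these, only without EC replicate 2.

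In PG/VG vs. control, 8 of the 50 members were DEGs and all 8 had a lower level, compared with 1.9% of all genes tested that were lower. The 8 were EIF4EBP1, EEF1B2, EIF2A, EIF6, EIF3I, EIF3D, EIF3B and EIF2B3. The median LFC was −0.15, compared with 0.0134 over all genes, and by batch it was −0.18, −0.16 and −0.13. The level was lower in all 3 batches for 36 members, compared with 19.9% of all genes, and 17 members had no overlap between PG/VG and control libraries, compared with 6.37% of all genes. Both comparisons use the same 3 control libraries, so their values are given side by side and are not independent. With DESeq2, 14 members and 4.47% of all genes passed, in batches 2 and 3 alone 4 members and 2.09%, on ComBat-Seq counts with DESeq2 27 members and 10.8%, with the 2 groups alone 20 members and 7.74%, and without the batch term in edgeR 0 members and 0.00624%, where 9 members had an unadjusted p under 0.05. Leaving out PG/VG replicate 2 gave 2 members beside 1.21% of all genes, and leaving out EC replicate 2 gave 20 beside 6.84%. Without control replicate 2, 3 or 4 there were 3, 4 and 3 members, beside 2.43%, 1.87% and 2.74% of all genes. All 8 kept their calls without an EC library, which is not part of this comparison. EIF4EBP1 and EEF1B2 kept theirs with any 1 library left out. Beyond the fits without an EC library, EIF3I and EIF2B3 kept theirs only without PG/VG replicate 3, and EIF3D and EIF3B in no other fit.

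**Figure D1:**
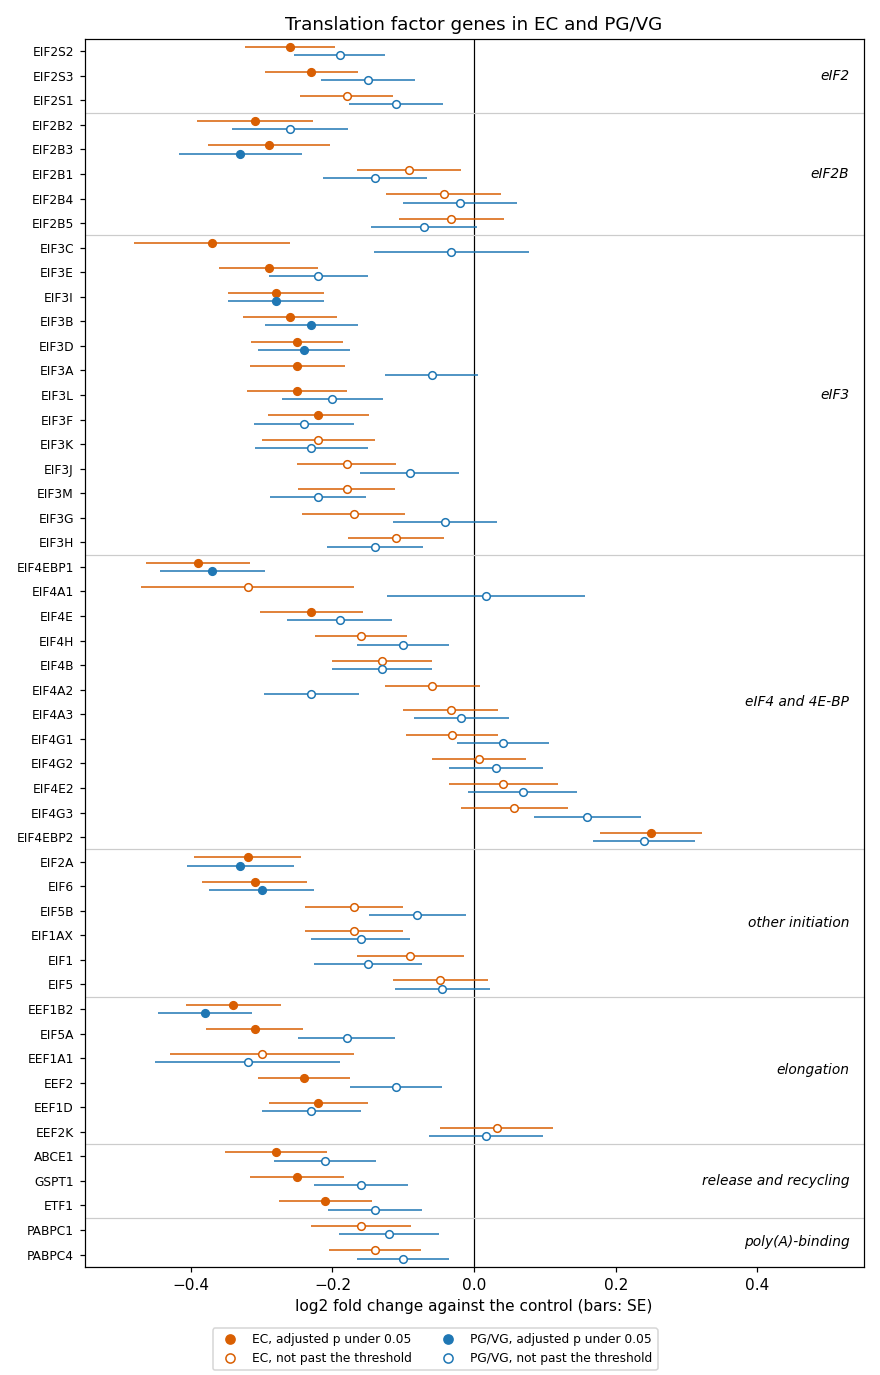
Fitted LFC against the control of the 50 tested members, in EC and in PG/VG and by factor group, with bars for the SE and filled symbols for an adjusted p under 0.05 in edgeR. Most points lie between 0 and −0.4, and EIF4EBP2 is the member farthest to the right, at 0.25 and 0.24.

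The members were expressed at very different levels. Divided by the length of the canonical transcript in kilobases (RPKM), the control level (mean ± SD, n = 3) was highest for EEF1A1, which delivers aminoacyl-tRNA, with 2380 ± 722. EEF2 followed with 887 ± 57.4, PABPC1 with 572 ± 84.2, EIF5A with 559 ± 58.0 and EEF1B2 with 380 ± 48.5. PABPC1 and EIF5A, and EEF1B2 and EIF4G2 (372 ± 10.4), differed by less than their SD. Subunits of eIF2 ranged from 50.2 to 237 RPKM, those of its exchange factor eIF2B from 9.16 to 29.4, those of eIF3 from 12.6 to 230, and the release and recycling factors from 44.5 to 108. The lowest eIF3 value is that of EIF3C, whose level is uncertain because of a near-identical copy, and the next lowest is EIF3M with 31.5. This order depends on the transcript length used, which is 5047 bases for EIF3M and 772 for EIF3K. In CPM the control mean of EIF3M (159) was above that of EIF3K (104). In EC the same 4 genes led, with EEF2 at 749 ± 59.9 and EIF5A at 450 ± 8.78 RPKM, and EIF4G2 (374 ± 4.00) came before EEF1B2 (303 ± 58.9).

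eIF2 carries the initiator tRNA, and 2 of its 3 subunit genes fell in EC while 0 of 3 passed in PG/VG, where 2 had an unadjusted p under 0.05 in edgeR. The median LFC was −0.23 and −0.15. EIF2S2, the beta subunit, was at 725, 668 and 427 CPM in control replicates 2, 3 and 4, at 643, 577 and 378 CPM in PG/VG and at 624, 564 and 343 CPM in EC. The batch 4 libraries were the lowest of each condition, so the groups overlapped, yet within each batch the order was control, PG/VG, EC. The LFC was −0.26 ± 0.064 (SE) in EC (adjusted p = 0.00945 in edgeR) and −0.19 ± 0.064 (SE) in PG/VG (adjusted p = 0.0997 in edgeR). EIF2S3, the gamma subunit that binds GTP, was at 371, 344 and 287 CPM in the control, 312, 315 and 270 CPM in PG/VG and 319, 297 and 241 CPM in EC. Its level was lower in both treatments in each batch, with an LFC of −0.23 ± 0.066 (SE) in EC (adjusted p = 0.0263 in edgeR) and −0.15 in PG/VG (adjusted p = 0.189 in edgeR). EIF2S1, the alpha subunit whose phosphorylation slows initiation, had an LFC of −0.18 and −0.11 and passed in neither.

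Of the 5 eIF2B genes, 2 fell in EC and 1 in PG/VG. EIF2B3, the gamma subunit of the catalytic part, was at 40.7, 41.2 and 39.3 CPM in the control, 31.0, 34.0 and 31.7 CPM in PG/VG and 36.8, 33.2 and 29.2 CPM in EC. Every treated library was below every control library. The LFC was −0.29 ± 0.086 (SE) in EC (adjusted p = 0.0268 in edgeR) and −0.33 ± 0.087 (SE) in PG/VG (adjusted p = 0.0311 in edgeR). EIF2B2, the beta subunit, was at 36.8, 35.7 and 45.8 CPM in the control, 30.0, 31.8 and 36.5 CPM in PG/VG and 29.8, 31.2 and 34.5 CPM in EC. EC did not overlap the control, with an LFC of −0.31 (SE 0.082, adjusted p = 0.0150 in edgeR), and PG/VG had −0.26 (adjusted p = 0.0640 in edgeR). About 23.6% of the exon length of EIF2B2 overlaps other annotated genes. EIF2B1, EIF2B4 and EIF2B5 passed in neither treatment, with LFC from −0.14 to −0.020.

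eIF3 is the largest initiation factor and holds the small subunit, mRNA and other factors together. In EC, EIF3A, EIF3B, EIF3C, EIF3D, EIF3E, EIF3F, EIF3I and EIF3L fell, 8 of its 13 genes, while EIF3B, EIF3D and EIF3I fell in PG/VG. EIF3I was at 324, 313 and 341 CPM in the control, 256, 274 and 276 CPM in PG/VG and 285, 254 and 266 CPM in EC. EIF3D, which can bind the cap of some mRNAs, was at 276, 266 and 294 CPM in the control, 231, 234 and 244 CPM in PG/VG and 242, 224 and 237 CPM in EC. In both genes, and in EIF3B, no treated library reached the lowest control library. EIF3B was at 421, 417 and 389 CPM in the control, 370, 368 and 311 CPM in PG/VG and 368, 340 and 315 CPM in EC. The adjusted p of the 3 genes lay between 0.00812 and 0.0126 in EC and between 0.0199 and 0.0446 in PG/VG in edgeR. With 1 control or PG/VG library left out, EIF3B and EIF3D lost their PG/VG calls each time (adjusted p up to 0.172 and 0.219 in edgeR). EIF3I kept its PG/VG call only without PG/VG replicate 3 among these fits (adjusted p up to 0.198 in edgeR).

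EIF3E was at 326, 301 and 245 CPM in the control, 266, 257 and 222 CPM in PG/VG and 281, 252 and 186 CPM in EC, with an LFC of −0.29 ± 0.070 (SE) in EC (adjusted p = 0.00823 in edgeR) and −0.22 in PG/VG (adjusted p = 0.0732 in edgeR). EIF3F was at 262, 245 and 218 CPM in the control, 208, 214 and 192 CPM in PG/VG and 239, 213 and 175 CPM in EC, with an LFC of −0.22 ± 0.071 (SE) in EC (adjusted p = 0.0444 in edgeR) and −0.24 in PG/VG (adjusted p = 0.0575 in edgeR). Both were lower in all 3 batches of both treatments, and PG/VG did not overlap the control for EIF3F. EIF3L was at 216, 218 and 199 CPM in the control, 173, 195 and 183 CPM in PG/VG and 190, 184 and 160 CPM in EC, and its LFC of −0.25 in EC had an adjusted p of 0.0217 in edgeR. EIF3L shares 51.8% of its exon length with other annotated genes, among them ANKRD54, whose counts were 534 to 877 per library. The remaining 5, EIF3G, EIF3H, EIF3J, EIF3K and EIF3M, passed in neither treatment, with an LFC of −0.22 to −0.11 in EC and −0.23 to −0.041 in PG/VG.

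EIF3A and EIF3C, which form the core of eIF3, had lower values in EC than in PG/VG. EIF3A was at 750, 743 and 622 CPM in the control, 736, 671 and 617 CPM in PG/VG and 603, 641 and 530 CPM in EC. The EC library was the lowest of its batch in all 3 batches. EIF3C was at 34.1, 44.9 and 30.9 CPM in the control, 33.6, 42.7 and 31.0 CPM in PG/VG and 34.7, 28.8 and 21.4 CPM in EC. In batch 2 the EC library was the highest of the 3, and in batches 3 and 4 it was the lowest. The LFC of EIF3C was −0.37 ± 0.11 (SE) in EC (adjusted p = 0.0330 in edgeR) and −0.032 in PG/VG (adjusted p = 0.909 in edgeR). The call in EC held in 5 of 9 fits with 1 library left out, where the LFC was −0.60 without EC replicate 2 and −0.24 without EC replicate 3 (adjusted p = 0.219 in edgeR), and it was lost without control replicate 3 or 4 or EC replicate 3 or 4. EIF3C has a near-identical copy, EIF3CL, at 0.600 to 5.14 CPM, and reads mapping to both were not counted, so its level is uncertain.

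Among the 12 genes of the cap-binding eIF4 factors and 4E-binding proteins, 2 fell and 1 rose in EC and 1 fell in PG/VG. The median LFC of −0.046 and −0.0001 was the closest to 0 of the 8 factor groups. The binding proteins EIF4EBP1 and EIF4EBP2 were called in opposite directions in EC. EIF4EBP1 was at 279, 289 and 132 CPM in the control, 216, 239 and 94.4 CPM in PG/VG and 225, 201 and 104 CPM in EC. The batch 4 library was the lowest of each condition, and within every batch both treated libraries were below the control. EIF4EBP1 fell by 23.9% in EC (LFC −0.39, SE 0.074, adjusted p = 0.000967 in edgeR) and by 22.7% in PG/VG (LFC −0.37, SE 0.074, adjusted p = 0.00464 in edgeR), and kept both calls with any 1 of the 9 libraries left out.

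EIF4EBP2, the related binding protein, was at 135, 139 and 176 CPM in the control, 164, 154 and 213 CPM in PG/VG and 150, 179 and 207 CPM in EC. Both treated libraries were above the control in every batch, and batch 4 was the highest. It rose by 19.2% in EC (LFC 0.25, SE 0.072, adjusted p = 0.0213 in edgeR), and in PG/VG the LFC was 0.24 (SE 0.072, adjusted p = 0.0590 in edgeR). The call in EC held in 4 of the 9 fits with 1 library left out, which were those without a PG/VG library and that without EC replicate 2. It was lost in the other fits, with an adjusted p of 0.174 in edgeR without EC replicate 3. EIF4E, the cap-binding protein itself, was at 71.3, 66.4 and 85.4 CPM in the control, 59.6, 59.4 and 76.7 CPM in PG/VG and 61.8, 59.1 and 68.4 CPM in EC. It was lower in both treatments in each batch, with an LFC of −0.23 ± 0.073 (SE) in EC (adjusted p = 0.0397 in edgeR) and −0.19 in PG/VG (adjusted p = 0.142 in edgeR).

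The scaffold genes EIF4G1, EIF4G2 and EIF4G3 had LFC between −0.031 and 0.16 and did not pass, nor did the helicase genes and cofactors EIF4A2, EIF4A3, EIF4B and EIF4H or the cap-binding paralog EIF4E2. EIF4G2, the most abundant eIF4 gene per kilobase, was at 1460, 1380 and 1400 CPM in the control, 1480, 1360 and 1500 CPM in PG/VG and 1400, 1420 and 1430 CPM in EC, and these ranges overlapped. Its 95% interval in EC was −0.13 to 0.14. EIF4A1, the main helicase, had only 84 to 151 counts in each library. Other annotated genes cover 47.4% of its exons, and its level is uncertain here.

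**Figure D2:**
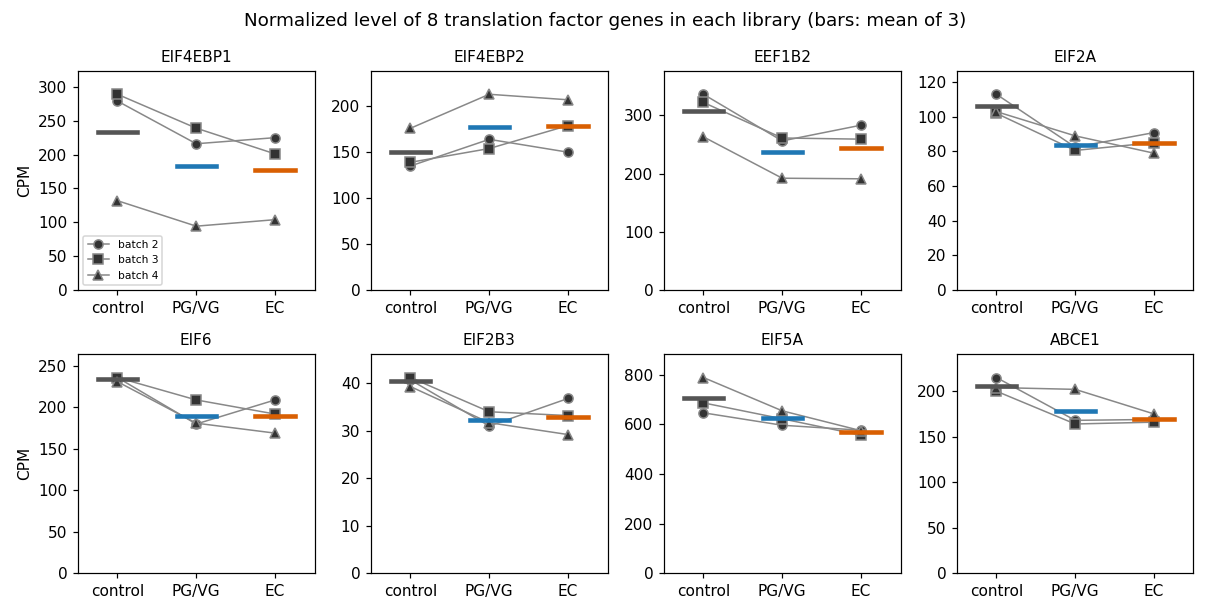
TMM-normalized CPM of 8 members in the 9 libraries, with the condition on the x axis, lines that join the libraries of a batch and a thick bar for the mean of 3 libraries. EIF4EBP1 and EEF1B2 lie lower, and EIF4EBP2 higher, in both treatments than in the control of the same batch.

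The other initiation factors include EIF6, which keeps free large subunits from joining small ones, and EIF2A, which can bring initiator tRNA without eIF2. Of these 6 genes, EIF2A and EIF6 fell in both treatments. EIF2A was at 113, 102 and 103 CPM in the control, 82.5, 80.6 and 89.0 CPM in PG/VG and 90.9, 85.1 and 79.0 CPM in EC. EIF6 was at 236, 236 and 231 CPM in the control, 180, 209 and 181 CPM in PG/VG and 209, 192 and 169 CPM in EC. Control libraries of both genes were close to each other, and every treated library was below them. EIF2A fell by 19.8% in EC (LFC −0.32, SE 0.075, adjusted p = 0.00632 in edgeR) and by 20.7% in PG/VG (LFC −0.33, adjusted p = 0.0115 in edgeR). EIF6 fell by 19.1% and 19.0% (LFC −0.31 and −0.30, adjusted p = 0.00783 and 0.0184 in edgeR). About 17.3% of the exon length of EIF6 overlaps another annotated gene. EIF1, EIF1AX, EIF5 and EIF5B had LFC from −0.17 to −0.045 and passed in neither.

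Of the 6 tested elongation genes, EEF1B2, EEF1D, EEF2 and EIF5A fell in EC, and EEF1B2 fell in PG/VG. EEF1B2, the exchange factor that recharges eEF1A with GTP, was at 336, 322 and 263 CPM in the control, 256, 261 and 192 CPM in PG/VG and 283, 259 and 191 CPM in EC. PG/VG did not overlap the control, and EC was below it in each batch. It fell by 21.0% in EC (LFC −0.34, SE 0.067, adjusted p = 0.00164 in edgeR) and by 23.3% in PG/VG (LFC −0.38, SE 0.067, adjusted p = 0.00200 in edgeR), and kept both calls in all 9 fits with 1 library left out. EEF1D, the second exchange subunit, was at 143, 152 and 147 CPM in the control, 124, 139 and 116 CPM in PG/VG and 132, 129 and 119 CPM in EC. Neither treatment overlapped the control, the LFC was −0.22 ± 0.070 (SE) in EC (adjusted p = 0.0385 in edgeR) and −0.23 in PG/VG (adjusted p = 0.0655 in edgeR), and 34.0% of its exons lie on other genes as well.

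EEF2, the translocation factor, was at 2810, 2980 and 2620 CPM in the control, 2640, 2770 and 2360 CPM in PG/VG and 2460, 2490 and 2150 CPM in EC. EIF5A was at 646, 686 and 788 CPM in the control, 596, 622 and 654 CPM in PG/VG and 576, 556 and 574 CPM in EC. For both genes EC lay wholly below the control, and PG/VG lay between EC and the control in each batch but overlapped the control. EEF2 had an LFC of −0.24 ± 0.065 (SE) in EC (adjusted p = 0.0143 in edgeR) and −0.11 in PG/VG (adjusted p = 0.338 in edgeR). EIF5A had −0.31 ± 0.068 (SE) in EC (adjusted p = 0.00413 in edgeR) and −0.18 in PG/VG (adjusted p = 0.141 in edgeR), and kept its call in EC in all 9 fits with 1 library left out. EEF2K, the kinase that inhibits eEF2, had an LFC of 0.032 and 0.017 and did not pass.

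EEF1A1, the most abundant member, did not pass in either treatment and is described because of its level, a choice made after its values were seen. It was at 10100, 9570 and 5450 CPM in the control, 6850, 7790 and 4960 CPM in PG/VG and 9360, 8010 and 3680 CPM in EC. The batch 4 library was the lowest of each condition, and all conditions overlapped. The LFC was −0.30 ± 0.13 (SE) in EC (adjusted p = 0.165 in edgeR) and −0.32 ± 0.13 (SE) in PG/VG (adjusted p = 0.201 in edgeR). The SE is the second largest among the members. With 1 library left out the LFC ranged from −0.48 (without EC replicate 2) to −0.15 (without EC replicate 4) in EC and from −0.50 (without PG/VG replicate 4) to −0.16 (without PG/VG replicate 2) in PG/VG. EEF1A1 was called in 3 of these 9 fits in each treatment, in EC without EC replicate 2, PG/VG replicate 2 or PG/VG replicate 4, and in PG/VG without PG/VG replicate 4, EC replicate 2 or EC replicate 4. The table lists 49 pseudogenes of EEF1A1, which together held 1.32% of the counts of the gene and its pseudogenes. EEF1G had 0 counts in all 9 libraries. An annotated gene overlapping 99.7% of its exon length, ENSG00000255508, had 0 to 11 counts, and reads overlapping more than 1 gene were not counted, so these zeros do not show that EEF1G is absent.

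All 3 release and recycling genes fell in EC, and 0 of 3 passed in PG/VG in edgeR, where all 3 had an unadjusted p under 0.05. ETF1 encodes eRF1, which reads the stop codon, and was at 411, 388 and 391 CPM in the control, 353, 343 and 384 CPM in PG/VG and 352, 330 and 349 CPM in EC. GSPT1 encodes the GTPase eRF3 and was at 336, 305 and 313 CPM in the control, 286, 265 and 304 CPM in PG/VG and 273, 263 and 269 CPM in EC. ABCE1, the ribosome-splitting ATPase, was at 215, 200 and 204 CPM in the control, 168, 164 and 202 CPM in PG/VG and 169, 166 and 175 CPM in EC. All EC libraries were below all control libraries for the 3 genes, while PG/VG replicate 4 lay close to the control. In EC the LFC of ETF1, GSPT1 and ABCE1 was −0.21, −0.25 and −0.28 (SE 0.066, 0.066 and 0.072, adjusted p = 0.0377, 0.0160 and 0.0112 in edgeR). In PG/VG it was −0.14, −0.16 and −0.21 (adjusted p = 0.236, 0.180 and 0.0893 in edgeR). In batch 4 alone the median difference of the group from the control was −0.22 in EC and −0.025 in PG/VG.

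The poly(A)-binding proteins join the tail of the mRNA to eIF4G. PABPC1 was at 1830, 1720 and 1360 CPM in the control, 1600, 1440 and 1430 CPM in PG/VG and 1580, 1530 and 1270 CPM in EC, with an LFC of −0.16 ± 0.071 (SE) in EC (adjusted p = 0.150 in edgeR) and −0.12 in PG/VG (adjusted p = 0.354 in edgeR). The groups overlapped. PABPC4 had an LFC of −0.14 and −0.10, and although its treated libraries were all below the control, it did not pass either (adjusted p = 0.184 and 0.409 in edgeR).

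**Figure D3:**
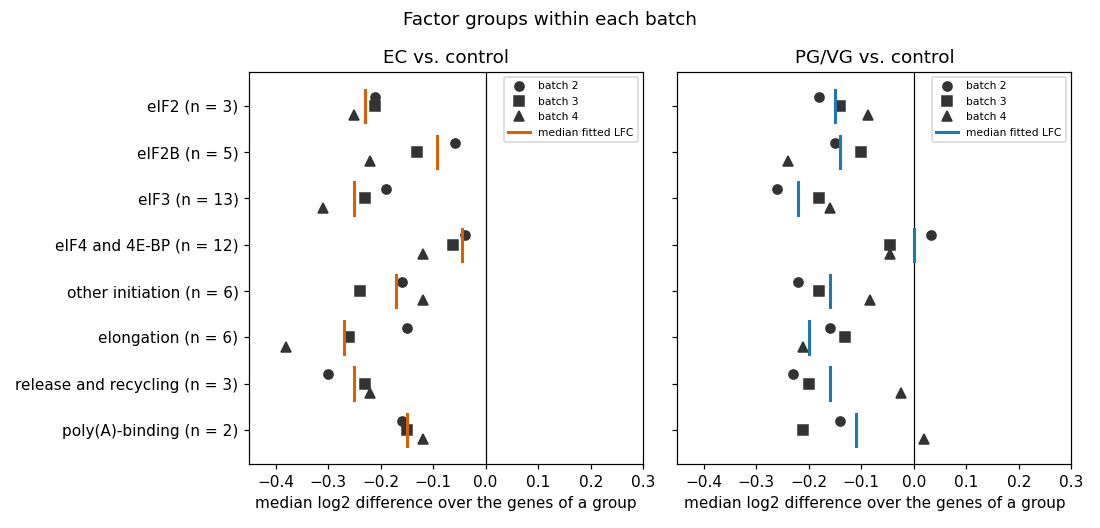
Median over the genes of each factor group of the log2 difference between a treated library and its batch control, with a symbol per batch and a bar for the median fitted LFC. In EC all batch medians of the 8 groups are below 0, and in PG/VG the eIF4 group in batch 2 (0.032) and the poly(A)-binding group in batch 4 (0.020) are above it.

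Members with a tract at the listed start had a lower level in EC in 11 of 11 genes, with 6 DEGs and a median LFC of −0.23. The 29 tested members with a promoter entry and no tract had a lower level in 24, with 11 lower DEGs and a median of −0.17. The 10 members without an entry are in neither group. Among all genes tested, the level was lower in 458 of 833 with a tract and in 5042 of 10593 without one. In PG/VG, 3 of 11 fell with a median of −0.23, and 4 of 29 fell with a median of −0.10. Over all genes tested that are in the promoter table, 10.7% of the 833 with a tract and 5.46% of the 10593 without one were lower DEGs in EC, and 5.88% and 1.77% in PG/VG. Members of a list of mRNAs known to carry the tract, written from general knowledge, numbered 10, of which 9 were tested. Of these 5 fell in EC, with a median of −0.22, and EEF1B2 fell in PG/VG, with the same median. The remaining 41 members had 18 lower DEGs and a median of −0.18 in EC, and 7 and −0.14 in PG/VG. No test of the difference between genes with and without a tract was made.

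The promoters from 250 bases before to 50 bases after the start were searched on both strands for the E-box CACGTG, which factors such as MYC and USF1 bind and which reads the same on both strands, and for TGATGCAA, a form of the composite site known for ATF4. The E-box was in the promoters of 9 of the 41 members (22.0%) and of 8.77% of all genes in the table. These were EIF2B3, EIF3F, EIF3K, EIF4A3, EIF4B, EIF4E, EIF4G1, EIF4H and EEF2K. TGATGCAA was in 0 of 41 members and in 1.08% of all genes. The stretches with the E-box, in capitals, are shown for members that fell and for EIF4B, where it lies close to the tract, which is also in capitals.
EIF4E, chr4:98929184-98929373, minus strand: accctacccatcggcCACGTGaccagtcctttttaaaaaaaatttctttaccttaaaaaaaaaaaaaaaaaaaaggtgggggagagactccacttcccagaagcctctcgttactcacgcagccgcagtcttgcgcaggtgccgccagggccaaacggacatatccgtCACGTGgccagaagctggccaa
EIF3F, chr11:7987257-7987360, plus strand: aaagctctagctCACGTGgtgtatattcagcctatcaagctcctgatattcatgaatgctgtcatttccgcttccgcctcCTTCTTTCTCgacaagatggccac
EIF4B, chr12:53006416-53006479, plus strand: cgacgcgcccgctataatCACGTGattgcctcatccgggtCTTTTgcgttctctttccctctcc
EIF2B3, chr1:44986756-44986785, minus strand: acagagggacaCACGTGtcgaatgctcctc
Of the 9 members with an E-box, 3 fell in EC and 1 in PG/VG, with a median LFC of −0.16 and −0.13. Of the 31 tested members with a promoter entry and without the E-box, 14 and 6 fell, with a median of −0.21 and −0.15. Among the genes tested that have a listed promoter, 6.99% of the 1403 with the E-box and 5.68% of the 10023 without it were lower DEGs in EC, and 3.14% and 1.92% in PG/VG. Such a match describes the letters of the promoter and does not show binding.

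The direct comparison sets the condensate of the EC liquid against that of the plain carrier. In EC vs. PG/VG, 0 of 50 members were DEGs in edgeR, compared with 0.855% of all genes tested, and 4 had an unadjusted p under 0.05. DESeq2 also called 0, compared with 1.09% of all genes, again with 4 at that unadjusted p. The median LFC was −0.027, and within the batches the median difference was 0.039, −0.035 and −0.11 in batches 2, 3 and 4. For 48 of the 50 members the 95% interval lay within ±0.5 on the log2 scale, with a median distance of 0.14 between the LFC and its bounds, and 46 of the intervals included 0. The exceptions were EIF3C (LFC −0.34, interval −0.57 to −0.11, adjusted p = 0.172 in edgeR), EIF4A1 (−0.34, −0.63 to −0.05, adjusted p = 0.290 in edgeR), EIF3A (−0.19, −0.33 to −0.05, adjusted p = 0.188 in edgeR) and EIF4A2 (0.17, 0.03 to 0.30, adjusted p = 0.275 in edgeR). EIF4A1 and EIF4A2, paralogs of the same helicase, were singled out after their values were seen. EIF4A2 was at 372, 344 and 380 CPM in the control, 298, 300 and 340 CPM in PG/VG and 365, 321 and 366 CPM in EC, so PG/VG lay below the control without overlap, and EC overlapped it.

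EIF3C was called in the direct comparison under some alternatives, with an LFC of −0.55 (adjusted p = 0.00478 in edgeR) without EC replicate 2 and −0.36 (adjusted p = 0.0195 in DESeq2) on batch-adjusted counts. On those adjusted counts EIF3A (LFC −0.19, adjusted p = 0.00948 in DESeq2) and EEF2 (−0.14, adjusted p = 0.0316 in DESeq2) were called as well. EIF5A had every EC library below every PG/VG library, as did EIF4A1, and EIF2B1 had every EC library above every PG/VG library. These 2 members lower and 1 higher without overlap compare with 3.37% and 4.54% of all genes.

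**Figure D4:**
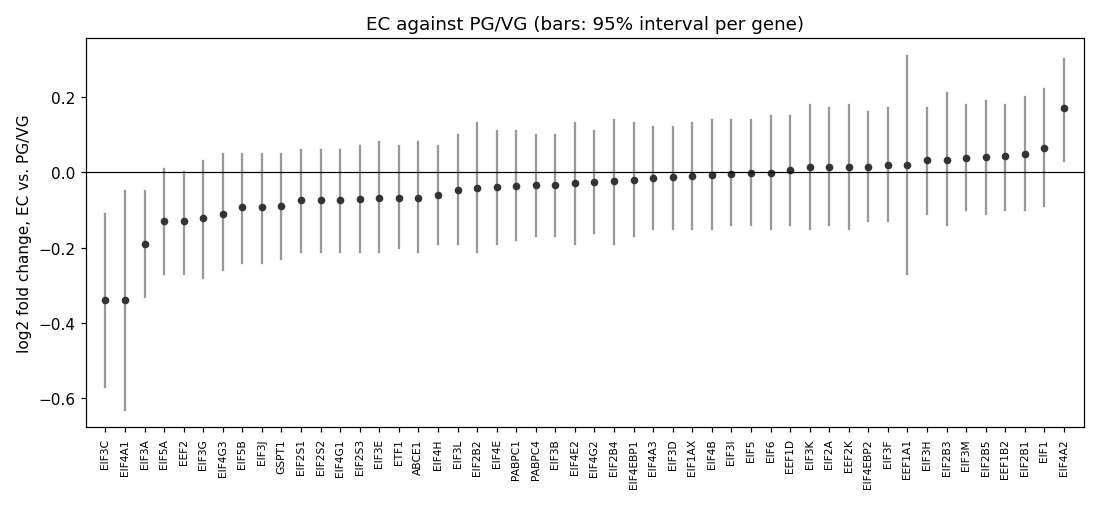
LFC of EC vs. PG/VG for the 50 tested members in order of size, with bars for the 95% interval of each gene. The bars of EIF3C, EIF4A1 and EIF3A lie below 0 and that of EIF4A2 lies above it, and the others include 0.

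Other genes of translation control were followed as 4 lists with 50 genes, of which 49 were tested. Of 22 tested accessory factors and paralogs, 5 fell and 1 rose in EC, with a median LFC of −0.069, and 2 fell in PG/VG, with a median of −0.050. BZW2, which competes with eIF5 for eIF2, was at 70.8, 64.0 and 58.1 CPM in the control, 48.7, 50.2 and 46.1 CPM in PG/VG and 53.2, 47.9 and 42.5 CPM in EC (LFC −0.43 in EC and −0.41 in PG/VG, adjusted p = 0.000633 and 0.00324 in edgeR). EEF1E1, a scaffold of the tRNA synthetase complex, was at 27.6, 27.7 and 22.0 CPM in the control, 19.4, 18.9 and 16.9 CPM in PG/VG and 22.9, 19.0 and 15.4 CPM in EC (LFC −0.44 and −0.48, adjusted p = 0.00430 and 0.00568 in edgeR). For BZW2 no treated library reached the control, and for EEF1E1 PG/VG did not overlap it. In EC the ribosome rescue factor HBS1L (LFC −0.23), the helicase DDX3X (−0.23) and LARP1, which binds TOP tracts (−0.21), also fell, with adjusted p from 0.0258 to 0.0442 in edgeR. The cap-binding paralog EIF4E3 rose, with an LFC of 0.52 (SE 0.17, adjusted p = 0.0445 in edgeR) at 3.37 to 6.35 CPM in EC and 2.31 to 4.32 CPM in the control.

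None of the 8 eIF2 kinase and phosphatase genes passed in edgeR, with a median LFC of 0.038 in EC, where 1 had an unadjusted p under 0.05, and 0.055 in PG/VG, where 3 had. None of the 11 genes of mTORC1 and the cap kinases passed either, with medians of 0.022 and −0.0014 and 1 and 2 at that unadjusted p. MTOR was at 125, 141 and 145 CPM in the control, 169, 156 and 165 CPM in PG/VG and 127, 164 and 148 CPM in EC (LFC 0.26 in PG/VG, adjusted p = 0.0632 in edgeR), so PG/VG lay above the control without overlap. The kinases act through protein phosphorylation, which these counts do not measure. Of the 8 enzymes that make hypusine on eIF5A and diphthamide on eEF2, DPH2 and DPH3 fell in EC (LFC −0.24 and −0.30, adjusted p = 0.0439 and 0.0175 in edgeR) and 0 passed in PG/VG, where 3 had an unadjusted p under 0.05 in edgeR. DHPS and DOHH, the hypusine enzymes, had an LFC of −0.30 (SE 0.25) and −0.26 (SE 0.090) in EC and did not pass.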

How the data were processed

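Poly(A) RNA of 9 BEAS-2B libraries was sequenced, 3 for each of control, PG/VG and EC. Per the labels and the methods of the study, the authors used fastp for trimming, STAR for alignment to GRCh38.p12, and counted them on exons with featureCounts (Subread 2.0.4), ignoring reads that map to several places or overlap several genes. The strand setting is not given in the sources used here. The deposited table holds raw counts for 63187 genes, with no normalization or batch adjustment by the authors, and all 9 columns were used.

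Genes that reached 10 counts in 3 or more libraries were fitted in R 4.3.3 with edgeR 4.0.16 (TMM, robust quasi-likelihood, condition and batch as terms, all 9 libraries) and p-values were adjusted by Benjamini-Hochberg over all 16030 genes, with a threshold of 0.05. The SE was approximated as the absolute LFC divided by the square root of F. CPM used TMM-scaled library sizes, and RPKM divided it by the GENCODE release 44 canonical transcript length. Promoter sequences and positions are from RefSeq. After subtraction of condition means, same-numbered libraries correlated at 0.334 to 0.707 (9 pairs), and differently numbered ones −0.539 to 0.426 (18 pairs). Libraries of batch 4 correlated at 0.648 to 0.707 with each other and at −0.539 to −0.419 with the rest. Within batches 2 and 3, same-numbered pairs had 0.334 to 0.399 and differently numbered pairs 0.28 to 0.426. The number was kept as a replicate block because the labels give it as the batch. Libraries of a condition differed by more than sampling noise. The study describes the 3 libraries of a condition as biological replicates, and the labels add nothing on separate cultures, so p-values measure the spread between these libraries. Steps were run on simulated data with planted changes larger than the LFC of any member, so detection of changes of the reported size was not tested.

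The genes named with full values were members called in any comparison, the member with the largest absolute LFC in EC of a group without a call, and members that rose in a group whose median fell. Members and lists were chosen with earlier results of these data known. Alternatives were no block, RLE scaling, other filters, DESeq2 1.42.0, ComBat-Seq (sva 3.50.0) followed by DESeq2, the 2 groups alone, each library left out, and, after seeing the data, batches 2 and 3 only. With no protein or ribosome measurement in the table, only mRNA is described.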

Additional observations from a re-analysis of the deposited data

How the results depend on the processing

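The 24 members called in EC and the 8 called in PG/VG kept their direction under every alternative run. All of them kept their calls under RLE scaling, with at least 10 counts in every library, in DESeq2, on ComBat-Seq counts and with the 2 groups alone. The filter of 10 counts in every library removes none of the 50 tested members. On ComBat-Seq counts 19.2% of all genes passed in EC vs. control, compared with 13.5% in the main fit. A call kept in either of these settings is therefore a weak check. Without a filter 19 of 24 and 6 of 8 members kept their calls. Without the replicate block, 0 members were called in EC and 0 in PG/VG in edgeR, where 14 and 9 had an unadjusted p under 0.05. With batches 2 and 3 only, a setting chosen after seeing the data, 8 were called in EC and 4 in PG/VG, of which 2 were among the 8, and the PG/VG median LFC was −0.19. In EC vs. control the count was 25 in DESeq2, 34 (33 lower) on ComBat-Seq counts and 25 with the 2 groups alone. These stand beside 10.8%, 19.2% and 13.2% of all genes. In PG/VG vs. control the count was 14 in DESeq2, 27 (26 lower) on ComBat-Seq counts and 20 (19 lower) with the 2 groups alone, beside 4.47%, 10.8% and 7.74% of all genes. In EC vs. PG/VG it was 1 without a filter, 3 on ComBat-Seq counts and 1 with the 2 groups alone, with EIF3C among them each time, beside 0.877%, 4.09% and 1.97% of all genes. With 1 library left out the count ranged from 8 (without control replicate 3, as without EC replicate 4) to 26 (without EC replicate 2) in EC vs. control, from 2 (without PG/VG replicate 2) to 20 (without EC replicate 2) in PG/VG vs. control, and from 0 to 1 in EC vs. PG/VG. The median LFC then ranged from −0.23 to −0.19, from −0.20 to −0.12 and from −0.060 to −0.0036. Where fewer libraries enter a fit, the residual degrees of freedom are also fewer, and otherwise the cause was not tested. EIF4A1, EIF3C and EEF1A1 have the largest SE of the members, so small changes are harder to detect for them.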
